A study of Mus musculus with 8 samples.

Results

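Cym, Tinag, Cpn1, Elapor1, Veph1, Entpd1 and Zfp804b are 7 mouse genes with lower expression in embryonic lungs labelled as lacking Ezh2 in the epithelium. Each was taken as the probe set carrying that single gene symbol in the platform annotation, and all 7 were found among 22180 genes with such a probe set. Each had 1 such probe set, so no choice between probe sets was needed. The genes had been picked by their change between mutants and controls on these same arrays, so their changes are described without a test. They are 7 of the 12 genes with the largest fall among those called lower. The smallest change among them was that of Entpd1, with a log2 change of −0.69, and the next gene on that ranking was Aldh1a7, with −0.68. The 5 others among the 12 were Gm19990, Zfp868, D5Ertd579e, Cckar and Fmod.

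RNA was measured in whole lungs of 8 embryos at embryonic day 14.5, all on a mixed C57BL/6 x 129S6 background. The 4 control embryos were labelled Shh-cre, and the 4 mutants Shh-cre:Ezh2-flox/flox, so both groups carried the Cre driver and only the mutants are labelled with floxed Ezh2. Shh-cre is active where Shh is expressed, which in the lung is the epithelium, so mesenchyme, vessels and blood of mutant lungs are not targeted. The embryos came from 4 litters of 2, with controls 1 and 2 in litter 1, controls 3 and 4 in litter 2, mutants 1 and 2 in litter 3, and mutants 3 and 4 in litter 4, and no litter held both genotypes.

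Ezh2 is the catalytic subunit of the Polycomb repressive complex PRC2, which methylates histone H3 at lysine 27 and is known for keeping genes silent. The 7 genes do not form a family. Cym encodes chymosin, a milk-clotting aspartic protease of the stomach of young mammals. Tinag encodes tubulointerstitial nephritis antigen, a basement membrane protein best known from kidney tubules. Cpn1 encodes the catalytic subunit of carboxypeptidase N, which trims kinins and complement fragments in plasma. Entpd1 encodes CD39, a cell surface enzyme that breaks down extracellular ATP and ADP. Elapor1 encodes a membrane protein of endosomes and lysosomes, Veph1 a protein with a pleckstrin homology domain that is known to dampen TGF-beta signalling, and Zfp804b a zinc finger protein.

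Array medians lay between 7.05 and 7.12 on the log2 scale. Values of Xist, which is high in females, were 6.37 to 6.74 in controls 1 and 2 and mutant 3, and 12.61 to 13 in the others. The lung regulator Nkx2-1 and the distal epithelial gene Sftpc had mean log2 values of 10.79 and 12.85 in controls and 10.74 and 12.93 in mutants, and the mesenchymal regulators Foxf1 and Tbx4 had 11.88 and 11.24 in controls. Ezh2 itself lay at 11.83 to 11.93 in controls and 11.75 to 11.80 in mutants. Untargeted cells add to this signal, and the position of the probes relative to the floxed part of the gene was not analysed here, so the value checks the labels only weakly.

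The sequences before the start sites of Cym, Tinag and Cpn1 are shown because these are the 3 genes whose upstream windows held a TATA box or a forkhead motif, the kind bound by factors such as Foxa1. They come from RefSeq on GRCm38.p6, where all 7 genes had an entry, and lie on the minus strand. They read 5′ to 3′ towards the start site, with 250, 229 and 219 bases, and stop before the first base annotated to the gene. Capitals mark matches to the motifs searched on both strands.
Cym, chr3:107221733-107221982: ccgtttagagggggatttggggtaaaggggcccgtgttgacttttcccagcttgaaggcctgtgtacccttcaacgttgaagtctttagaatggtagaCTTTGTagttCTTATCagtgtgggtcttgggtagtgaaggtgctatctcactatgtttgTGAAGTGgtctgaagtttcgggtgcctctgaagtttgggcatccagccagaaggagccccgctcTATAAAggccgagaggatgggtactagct
Tinag, chr9:77045803-77046031: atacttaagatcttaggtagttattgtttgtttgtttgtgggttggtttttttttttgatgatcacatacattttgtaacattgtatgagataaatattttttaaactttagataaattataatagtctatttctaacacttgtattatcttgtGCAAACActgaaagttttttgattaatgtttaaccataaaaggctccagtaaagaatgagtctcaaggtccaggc
Cpn1, chr19:43986552-43986770: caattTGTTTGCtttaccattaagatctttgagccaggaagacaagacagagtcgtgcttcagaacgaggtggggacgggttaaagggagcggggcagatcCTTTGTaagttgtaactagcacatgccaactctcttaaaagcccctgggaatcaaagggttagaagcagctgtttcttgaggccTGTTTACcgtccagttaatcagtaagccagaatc

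The TATA box was searched as TATAAA. The forkhead motif was written TGTTTNC. For homeodomain factors of the NK2 class, such as Nkx2-1, the letters were TNAAGTG. Sox factors were represented by ACAAAG. The motif of Gata factors was entered as GATAAG. No marked matches overlap. In the full window of 250 bases upstream, Cym held a TATA box 24 to 29 bases before its start site, and 1 match each to the NK2, Sox and Gata motifs. Tinag held 1 forkhead match, 90 to 96 bases upstream. Cpn1 held 2 forkhead matches, of which the nearer lay 59 to 65 bases upstream, and 1 Sox match. Veph1 held 1 NK2 match, and the windows of Elapor1, Entpd1 and Zfp804b held none of the 5 motifs. Of all 32851 RefSeq promoters, 12.4% held the TATA box, 17.8% the forkhead motif, 10.1% the NK2 motif, 16.5% the Sox motif and 6.55% the Gata motif.

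Base composition differed widely between the genes. The window of Tinag held 1 CpG and 28.8% G or C, that of Veph1 4 CpGs, that of Cym 6 and that of Cpn1 7. Zfp804b had 16, Elapor1 had 21 and the first of 2 start sites of Entpd1 had 18, with 8 at the other start site. The median over all promoters was 6 CpGs, with quartiles of 2 and 16. The genes thus spanned CpG-poor and CpG-rich starts, and none of the 5 motifs was held by all 7.

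Across all genes 134 were called higher and 55 lower in mutants (adjusted p of at most 0.05, limma with Benjamini-Hochberg adjustment), which is 0.604% and 0.248% of those tested. With each array centred on its median the counts were 113 and 74. All 7 genes are among the 55 by choice, and in all 7 every mutant lay below every control, which held for 3.6% of all genes. Nothing is read from these counts, since the genes were chosen on this contrast. The log2 changes ran from −1.78 to −0.69 with a median of −0.94, beside a median of 0.01 over all genes. In bulk tissue, fewer cells of a type and less RNA per cell cannot be told apart.

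**Figure D1:**
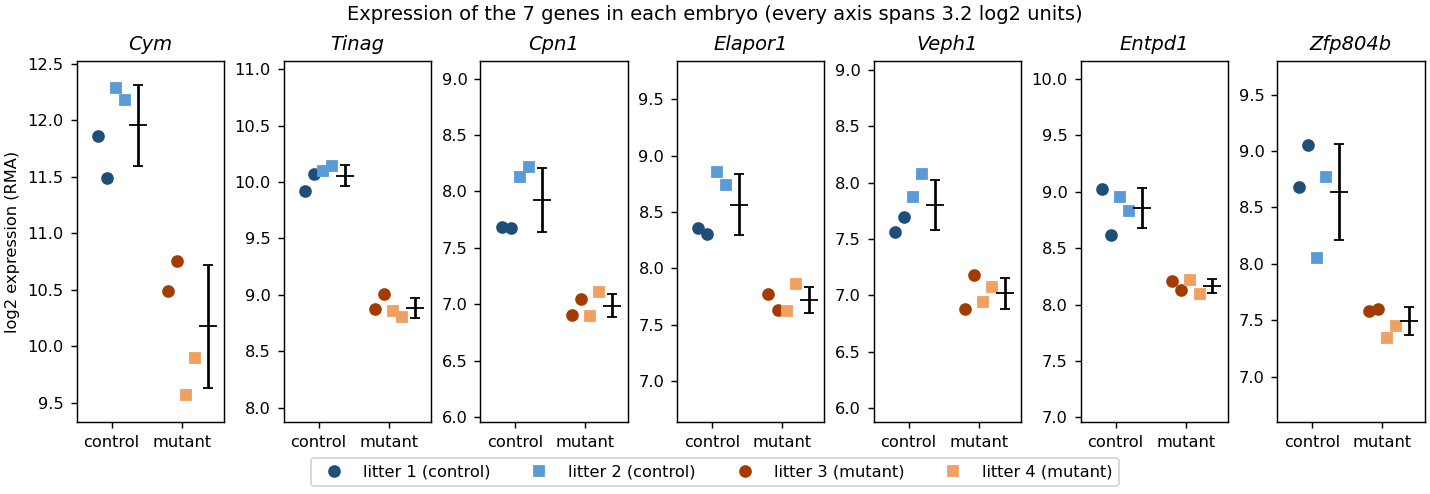
Log2 expression (y axis) of the 7 genes in each embryo, by genotype (x axis), with point shape and colour giving the litter and black bars the mean ± SD of 4 embryos. Every mutant lies below every control, litter 2 lies above litter 1 in the controls for 5 of 7 genes, and Cym has the widest mutant spread.

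Among the secreted and matrix proteins, Cym showed the largest change of any called gene that was lower. Its log2 value was 11.87, 11.49, 12.29 and 12.18 in controls 1 to 4 and 10.49, 10.75, 9.57 and 9.89 in mutants 1 to 4. The lowest control and the highest mutant were 0.74 apart, and mutants 3 and 4, which are littermates, were lowest. The means were 11.96 ± 0.36 (SD, n = 4) and 10.17 ± 0.54, and the log2 change was −1.78 ± 0.25 (SE), or 3.44-fold lower. On the linear scale 29.1% of the control signal was left. Cym was also the most variable of the 7 in mutants, where its values spanned 1.19, against 0.12 to 0.30 for the other 6.

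Tinag had the narrowest range of the 7 in controls, 0.22, while in mutants Entpd1 had the narrowest, 0.12. The 4 controls had log2 values of 9.92, 10.07, 10.09 and 10.14, and the 4 mutants 8.88, 9.01, 8.85 and 8.80. The gap between the groups, 0.91, was the widest of the 7 and about 4 times the range within either group. The means were 10.06 ± 0.10 (SD, n = 4) and 8.89 ± 0.09, with a log2 change of −1.17 ± 0.07 (SE), which left 44.3% of the control signal.

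Cpn1 had log2 values of 7.68, 7.68, 8.12 and 8.21 in controls 1 to 4. In mutants 1 to 4 the values were 6.90, 7.04, 6.90 and 7.11. The controls separated by litter, with littermates within 0.09 of each other and the litters 0.49 apart, whereas the mutants of both litters lay together. The log2 change was −0.94 ± 0.13 (SE), from 7.92 ± 0.28 (SD, n = 4) to 6.99 ± 0.10, with 52.3% of the control signal left.

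Entpd1, the nucleotide-degrading enzyme at the cell surface, had the smallest change. Its log2 values were 9.02, 8.61, 8.95 and 8.83 in controls 1 to 4 and 8.21, 8.13, 8.21 and 8.10 in mutants 1 to 4. Control 2 was the lowest control and still 0.40 above the highest mutant. The means were 8.85 ± 0.18 (SD, n = 4) and 8.16 ± 0.06, and the log2 change was −0.69 ± 0.10 (SE), leaving 62.0% of the control signal.

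Of the intracellular proteins, Elapor1 had log2 values of 8.36, 8.30, 8.86 and 8.74 in controls 1 to 4. The mutants had 7.78, 7.63, 7.62 and 7.86. Controls again separated by litter, by 0.46, while the mutant litters overlapped. The log2 change was −0.84 ± 0.12 (SE), with means of 8.57 ± 0.27 and 7.72 ± 0.12 (SD, n = 4 each) and 55.8% of the control signal left.

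Veph1 lay at 7.57, 7.70, 7.88 and 8.07 in controls 1 to 4 and at 6.88, 7.18, 6.94 and 7.07 in mutants 1 to 4. The gap between the groups, 0.39, was the narrowest of the 7. Its log2 change was −0.79 ± 0.11 (SE), from 7.80 ± 0.22 (SD, n = 4) to 7.02 ± 0.13, which left 58.0% of the control signal.

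Zfp804b was the most variable in controls, with log2 values of 8.68, 9.05, 8.05 and 8.77. The mutants were close together at 7.58, 7.60, 7.34 and 7.45. Control 3 lay 0.63 below the next control, yet 0.45 above the highest mutant. The log2 change was −1.14 ± 0.19 (SE), with means of 8.64 ± 0.42 and 7.49 ± 0.12 (SD, n = 4 each) and 45.2% of the control signal left. Levels are not compared between genes, since each probe set has its own brightness.

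The control litters differed in the same direction for most of the genes. In 6 of the 7 genes the mean of control litter 2 lay above that of control litter 1, against 52.7% of all genes. In 5 of them, Cym, Tinag, Cpn1, Elapor1 and Veph1, both embryos of litter 2 lay above both of litter 1, which held for 24.1% of all genes. The litter difference was 0.55 for Cym, 0.49 for Cpn1, 0.46 for Elapor1, 0.34 for Veph1, 0.12 for Tinag and 0.07 for Entpd1. Zfp804b ran the other way, with −0.46, through its low value in control 3. This comparison of control litters uses no mutant, but it sets 2 embryos against 2 and cannot be tested. The embryos of litter 1 had low Xist and those of litter 2 high Xist values, so among controls litter and sex cannot be told apart.

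**Figure D2:**
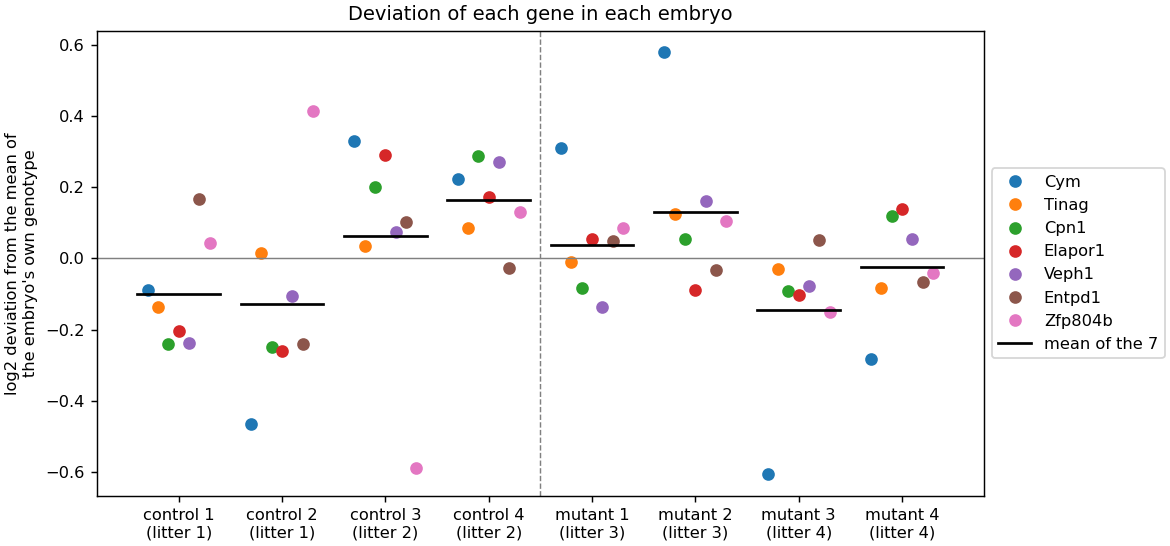
Log2 deviation of each gene (coloured points, y axis) from the mean of the embryo's own genotype, for the 8 embryos (x axis), with black lines for the mean of the 7 genes. In controls 3 and 4 the points of 6 of 7 genes lie above 0, in mutant 3 those of 6 lie below, and Cym and Zfp804b reach farthest from 0.

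Controls 3 and 4 each had 6 of 7 genes above the control mean, and controls 1 and 2 each had 5 of 7 below it. Control 2 was the lowest control for 4 genes, Cym, Cpn1, Elapor1 and Entpd1. In mutants the order was less shared. Mutant 3 lay below the mutant mean for 6 of 7 genes and was the lowest for 4, whereas mutant 2 was the highest for 4. The mean deviation over the 7 genes was 0.16 in control 4 and −0.13 in control 2, and 0.13 in mutant 2 and −0.14 in mutant 3. Without Cym, the largest contributor, the mutants ranged only from −0.07 to 0.05.

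The mutant litters separated for 3 genes, Cym, Tinag and Zfp804b, in which both embryos of litter 4 lay below both of litter 3, against 20% of all genes. The litter means of Cym were 9.73 and 10.62, a difference of −0.89, and those of Tinag and Zfp804b differed by −0.11 and −0.19. For Cpn1, Elapor1, Veph1 and Entpd1 the difference lay between −0.02 and 0.04. The range of the 4 controls was wider than that of the 4 mutants in 6 of the 7 genes, against 51.1% of all genes, with Cym as the exception. The genes were chosen for low mutants, so this is a description.

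Cpn1, Elapor1 and Veph1 had the most similar profiles over the 8 embryos. With each profile centred on its own mean, the root mean square difference was 0.10 between Cpn1 and Elapor1, 0.11 between Cpn1 and Veph1 and 0.16 between Elapor1 and Veph1. Cym differed from every other member by 0.47 to 0.66, and Zfp804b from the others by 0.28 to 0.61. These differences include the mutant-control difference by which the genes were chosen, so genes with like log2 changes come out alike. They do not measure co-variation within a genotype. With 4 litters, no correlation between genes over the embryos was computed.

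Outside the 7, the gene nearest to their mean profile was Zfp868, a zinc finger gene, with a root mean square difference of 0.14 over the 8 embryos. It was followed by Cckar, a cholecystokinin receptor, with 0.18, Fmod, which encodes fibromodulin, with 0.20, Aldh1a7, an aldehyde dehydrogenase, with 0.20, and Adamts18, a secreted metalloprotease, with 0.22. All 5 were lower in mutants, with log2 changes of −0.89, −0.83, −0.70, −0.68 and −0.65. Most of this likeness is the genotype difference itself.

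For single members, Cckar was the nearest gene to Elapor1, at 0.09, and to Cym, at 0.57. It too was highest in control 3 (10.61) and lowest in mutant 3 (9.23), as Cym was. Aldh1a7 was nearest to Veph1, at 0.09, and like it was highest in control 4 (10.38). Aqp4, a water channel, was nearest to Entpd1, at 0.11, and Zfp868 to Tinag, at 0.19. Zfp982 was nearest to Cpn1, at 0.12, and Ahcy to Zfp804b, at 0.16. Ahcy encodes the enzyme that hydrolyses S-adenosylhomocysteine, and its values of 9.92, 10.11, 9.21 and 10.07 in controls 1 to 4 had the same low control 3. The log2 changes of Zfp982 and Ahcy were −0.84 and −0.89, with Benjamini-Hochberg adjusted p = 0.0504 and 0.0693 by limma, so neither passed.

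No gene in the lists of relatives and pathway members was called lower by limma. Of 7 other aspartic proteases measured, Napsa, the napsin protease of distal lung epithelium, rose by 0.64 ± 0.12 (SE) on the log2 scale (limma, Benjamini-Hochberg adjusted p = 0.0421), and 0 fell. Of the 7, 2 had an unadjusted p under 0.05, against 9.87% of all genes. Napsa lay at 8.10, 8.12, 8.70 and 8.37 in mutants and at 7.60 to 7.79 in controls. The stomach proteases Pgc, Pga5 and Ctse had log2 changes of 0.39, 0.04 and −0.20, none of which passed. The call of Napsa was lost without any 1 of controls 1 to 4 or mutant 4, with log2 changes of 0.61, 0.64, 0.67, 0.62 and 0.65 in that order, and in 9 of 23 alternatives in all, with adjusted p from 0.00741 to 0.174 by limma with the same adjustment.

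Tinagl1, the closest relative of Tinag, had a log2 change of 0.19 that missed the threshold. Of 30 genes of the basement membrane list, 1 rose, 0 fell and 29 did not pass, with a median log2 change of 0.11. On this list 11 had an unadjusted p under 0.05, against 9.87% of all genes. In 9 every mutant lay above every control, against 4.48% of all genes, and in 1 every mutant lay below. The 9 were Itgb4, the laminin chains Lama1 and Lama2, the collagen IV chains Col4a3 and Col4a4, Nid2, Npnt, Fras1 and Itga8, with log2 changes from 0.15 for Nid2 to 0.53 for Itgb4. The gene that rose was Itgb4, the integrin of hemidesmosomes, by 0.53 ± 0.08 (SE) on the log2 scale (limma, Benjamini-Hochberg adjusted p = 0.0132). This call was lost without control 4 and without litter 2, at log2 changes of 0.50 and 0.49. Lamb3, a laminin chain, was the gene with every mutant below every control, with a log2 change of −0.29 that missed the threshold.

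Cpn2, which encodes the noncatalytic subunit of carboxypeptidase N, had mean log2 values of 5.16 in controls and 5.18 in mutants. Both lay below the array medians of 7.05 to 7.12, where RMA shrinks changes. Falls were still seen at such levels, as for Zfp982, with means of 5.28 in controls and 4.44 in mutants. None of 13 other carboxypeptidase genes and none of 8 genes of kinins, anaphylatoxin receptors and kinin-cleaving enzymes passed by limma, with 3 and 0 at an unadjusted p under 0.05, against 9.87% of all genes, and median log2 changes of 0.09 and 0.11. Cpa3, a mast cell carboxypeptidase, had a log2 change of 0.81, with overlapping groups. Hc, which encodes complement C5, was on neither list. It was among the 55 genes called lower, with a log2 change of −0.57 (limma, Benjamini-Hochberg adjusted p = 0.006). Hc is named here after its values were seen.

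Elapor2, the relative of Elapor1, had a log2 change of 0.06. None of the 18 genes of its list, which holds regulators of secretory cells and genes of lysosomes and autophagy, passed by limma, with 1 at an unadjusted p under 0.05 and a median log2 change of −0.02. Bhlha15 and Xbp1, regulators of secretory cells, had 0.13 and −0.13. For Xbp1 and Atg5, an autophagy gene with a log2 change of −0.14, every mutant lay below every control. Of 21 genes of TGF-beta signalling, the pathway tied to Veph1, Tgfb2 rose by 0.33 ± 0.07 (SE) on the log2 scale (limma, Benjamini-Hochberg adjusted p = 0.0481), 0 fell and 20 did not pass, with 4 at an unadjusted p under 0.05. Every mutant lay above every control for Tgfb2, Tgfbr3 and Smad6, and below for Tgfb3. Of all genes, 4.48% had every mutant above every control, 3.6% every mutant below, and 9.87% an unadjusted p under 0.05. Tgfbr3, Smad6 and Tgfb3 missed the threshold, at 0.23, 0.18 and −0.22 on the log2 scale. The call of Tgfb2 was lost in 15 of 23 alternatives, among them the omission of any 1 of the 8 embryos, and its log2 change stayed between 0.25 and 0.42.

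The other ectonucleoside diphosphohydrolases measured, Entpd3, Entpd5, Entpd6, Entpd7 and Entpd8, had log2 changes of 0.002, −0.29, −0.001, −0.17 and −0.02, and none passed. Entpd5 had every mutant below every control. Nt5e, which encodes CD73, the enzyme that acts after CD39 on the way to adenosine, had a log2 change of 0.52, with every mutant above every control (limma, Benjamini-Hochberg adjusted p = 0.0505). P2ry2, a receptor for extracellular ATP and UTP, had 0.31 (limma, Benjamini-Hochberg adjusted p = 0.0517). None of the 21 genes of this list passed, with 4 at an unadjusted p under 0.05, against 9.87% of all genes. In 2 every mutant lay above every control and in 1 below, against 4.48% and 3.6% of all genes. Zfp804a, the relative of Zfp804b, and Gpatch8 had log2 changes of 0.02 and 0.07, and neither passed. Zfp804a had a mean of 4.89 in controls, below the array medians, where RMA shrinks changes, though falls were seen at such levels, as for Zfp982.

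**Figure D3:**
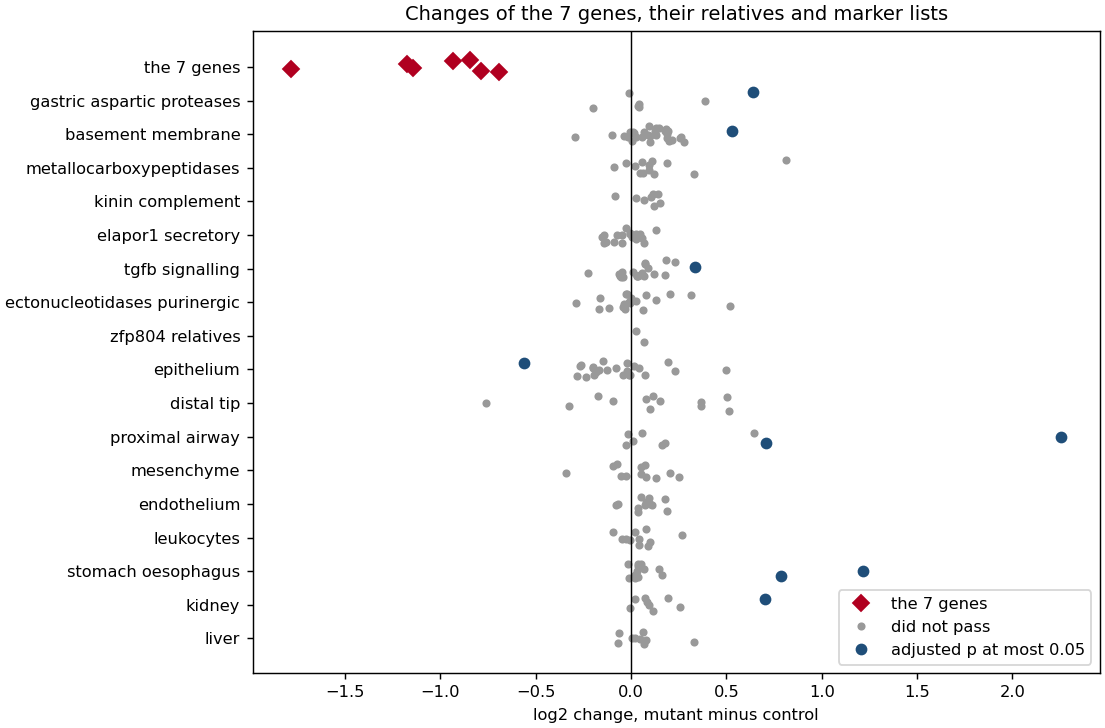
Log2 change, mutant minus control (x axis), of the 7 genes (red diamonds) and of the genes in each list of relatives, pathway members and markers (rows), with blue points for an adjusted p of at most 0.05 by limma. The 7 genes lie between −1.78 and −0.69, while Foxa1, at −0.56, is the only blue point left of 0.

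Markers of the targeted epithelium were set beside the 7 genes. Of 24 measured epithelial markers, Foxa1, a forkhead factor that opens chromatin in endoderm, fell, with a log2 change of −0.56 ± 0.06 (SE) (limma, Benjamini-Hochberg adjusted p = 0.00107). It lay at 10.33 to 10.39 in controls and at 9.71 to 9.88 in mutants. The other 23 did not pass, and the median log2 change was −0.10. Of the 24, 11 had an unadjusted p under 0.05, against 9.87% of all genes. The log2 change was negative in 18 of the 24, beside 47.1% of all genes. With quantile normalization 14 were negative, beside 50.8% of all genes, and with median centring 19, beside 59.5%. In 8 every mutant lay below every control, against 3.6% of all genes, and in 0 every mutant lay above. Epcam, Foxa2 and Shh were among the 8, with log2 changes of −0.26, −0.20 and −0.28. Krt19, Elf5 and St14 ran the other way, with 0.50, 0.23 and 0.19 and overlapping groups. Summed on the linear scale, the list reached 19404 to 21924 in controls and 18471 to 19728 in mutants. The values have no zero and no detection calls, so no marker can be called absent. The part of the epithelial markers in the changes of the 7 genes was not tested.

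None of 12 distal lung markers, plotted as distal tip, passed by limma, with 6 at an unadjusted p under 0.05, against 9.87% of all genes. The list mixes tip genes such as Sox9, Id2 and Etv5 with alveolar differentiation genes such as Lamp3, Slc34a2, Abca3 and Sftpb. Its median log2 change was 0.11, with summed levels of 19646 to 23913 in controls and 21486 to 23289 in mutants. These values pool both kinds and do not describe the tip alone. On this list every mutant lay below every control for Muc1, a membrane mucin, Etv5 and Lpcat1, with log2 changes of −0.76, −0.33 and −0.17, of which Muc1 had an adjusted p of 0.0716 (limma, Benjamini-Hochberg). Every mutant lay above every control for Lamp3 and Slc34a2, with 0.52 and 0.51, and Bmp4 had 0.37 with overlapping groups. Of all genes, 3.6% had every mutant below every control and 4.48% every mutant above. Sox9 and Id2 had log2 changes of −0.10 and 0.12, and Abca3 and Sftpb 0.15 and 0.37, all with overlapping groups. Of 9 airway markers 2 rose, Cbr2 and Trp63, beside 0.604% of all genes called higher. Their log2 changes were 2.26 and 0.71, and the median of the list was 0.16. Unadjusted p was under 0.05 for 3 of the 9, against 9.87% of all genes. In 3 every mutant lay above every control, against 4.48% of all genes, and in 0 below. The 3 genes lying above were Cbr2, Trp63 and Cyp2f2, of which Cyp2f2, at 0.64, missed the threshold. Summed levels of the 9 airway markers were 1186 to 1268 in controls and 2110 to 2364 in mutants. Without Cbr2, the marker with the largest change, the sums were 977 to 1059 and 1169 to 1239. None of 12 mesenchymal, 12 endothelial and 11 leukocyte markers passed by limma. Unadjusted p was under 0.05 for 2, 2 and 0 of them, against 9.87% of all genes. Every mutant lay above every control for 2, 3 and 0 of them, against 4.48% of all genes, and below for 0 in each list. The median log2 change was 0.05 for the mesenchymal and 0.08 for the endothelial markers. The leukocyte markers, listed because mature leukocytes carry CD39, had a median log2 change of 0.04 and summed to 3230 to 3819 in controls and 3160 to 4211 in mutants.

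Cym, Tinag and Cpn1 are best known from stomach, kidney and liver, so markers of these tissues were set beside them. Of 14 stomach and oesophagus markers 2 rose, Krt4 and Pax9, with log2 changes of 1.22 and 0.78, and 0 fell. The stomach genes Gkn1, Gkn2, Tff1, Tff2, Atp4a and Barx1 had log2 changes of 0.03, 0.02, 0.15, −0.01, 0.07 and 0.05. The list summed to 1506 to 1665 in controls and 1723 to 2021 in mutants. These sums include Krt4 and Pax9 and do not describe the stomach genes alone. Of 9 kidney markers Pax2 rose, with a log2 change of 0.70, and 0 fell, with sums of 1382 to 1430 in controls and 1465 to 1560 in mutants. None of 9 liver markers passed by limma, with 0 at an unadjusted p under 0.05 and sums of 826 to 836 in controls and 804 to 907 in mutants. In none of these 3 lists did every mutant lie below every control for any gene, against 3.6% of all genes. Every mutant lay above every control for 2 stomach and oesophagus, 3 kidney and 0 liver markers, against 4.48% of all genes. Unadjusted p was under 0.05 for 2, 3 and 0 of them, against 9.87% of all genes.

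The 7 genes lie on 4 chromosomes in the RefSeq table, with Cym, Elapor1 and Veph1 on chromosome 3, Cpn1 and Entpd1 on chromosome 19, Zfp804b on chromosome 5 and Tinag on chromosome 9. No member neighbours another. Between Cym and Elapor1 lay 32 other tested genes, and between Cpn1 and Entpd1 49. None of these was called by limma, with 4 and 3 at an unadjusted p under 0.05, against 9.87% of all genes.

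**Figure D4:**
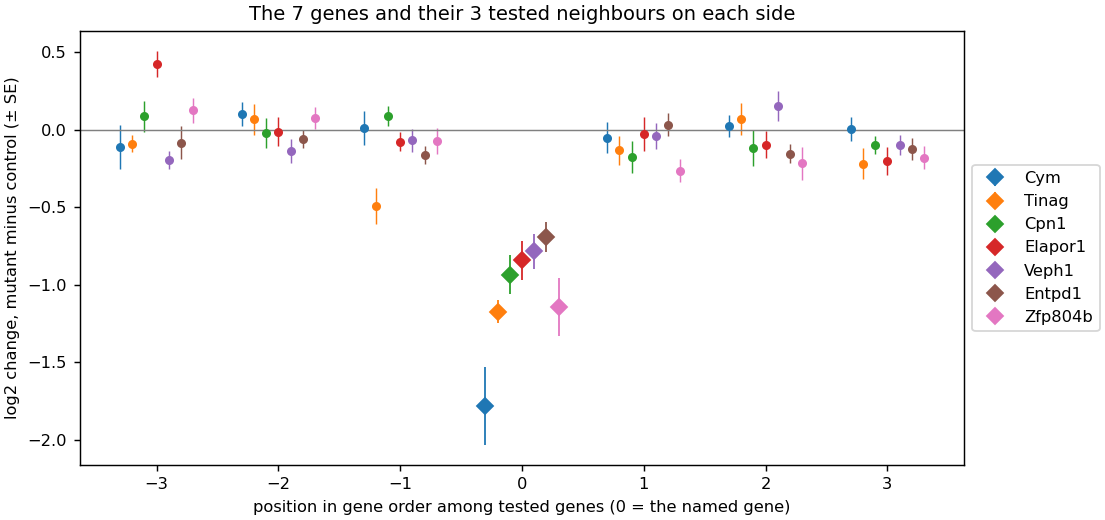
Log2 change, mutant minus control, with SE (y axis), of the 7 genes (diamonds at 0) and their 3 nearest tested genes on each side (circles), by position in gene order (x axis). The neighbours lie between −0.49 and 0.42, and the 7 genes, chosen for their fall, between −1.78 and −0.69.

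The 42 genes that neighbour the 7 were taken as the 3 nearest tested genes on each side. None passed by limma, with 9 at an unadjusted p under 0.05, against 9.87% of all genes. Their median log2 change was −0.08, and 29 of 42 had a negative log2 change, which is 69.0% beside 47.1% of all genes. With quantile normalization 33 were negative, beside 50.8% of all genes, and with median centring 32, beside 59.5%. In 6 of them every mutant lay below every control, which is 14.3% beside 3.6% of all genes. These were Gfral and Fam83b beside Tinag, Tiparp beside Veph1, Tctn3 and Ccnj beside Entpd1 and Tex47 beside Zfp804b. The most negative was Fam83b, the gene next to Tinag, with a log2 change of −0.49 ± 0.12 (SE) (limma, Benjamini-Hochberg adjusted p = 0.101). Fam83b encodes a signalling scaffold protein. Psrc1, near Elapor1, had a log2 change of 0.42 (limma, Benjamini-Hochberg adjusted p = 0.0504), with every mutant above every control. Single genes beside the 7 are named here after their values were seen.

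The size of the changes moved with the control litter left out. Without litter 1 the log2 changes of Cym, Cpn1, Elapor1 and Veph1 were −2.06, −1.18, −1.07 and −0.96, and without litter 2 they were −1.50, −0.69, −0.61 and −0.61. Zfp804b moved the other way, from −0.92 without litter 1 to −1.37 without litter 2. Entpd1 moved least, from −0.73 to −0.65. Cym also moved with the mutant litter, from −2.23 without litter 3 to −1.34 without litter 4. Tinag stayed between −1.23 and −1.11 over all alternatives. With the Xist level as a covariate, the log2 changes of Cym, Tinag, Cpn1, Elapor1, Veph1, Entpd1 and Zfp804b were −1.96, −1.20, −1.02, −0.92, −0.85, −0.70 and −1.10. Among the 5 embryos with high Xist values, an alternative chosen after seeing the data, they were −1.86, −1.22, −1.15, −1.04, −0.93, −0.74 and −0.86. The only controls in this subset were controls 3 and 4, so it also leaves out litter 1 and cannot separate sex from litter.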

How the data were processed

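Whole lungs of 8 embryos were hybridised to 1-colour Affymetrix arrays, 1 array per embryo, after labelling 100 ng of total RNA. The authors deposited log2 expression per probe set, made with RMA in the package oligo per the submitters' processing notes; their versions and options are not given in the sources. The table holds no detection calls, and RMA evens out array distributions and shrinks changes of dim genes. Of 41345 probe sets 23521 had a single symbol in the platform annotation, giving 22180 genes by the probe set with the highest mean.

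Genotype was fitted with limma 3.58.1 in R 4.3.3, taking litter as a random block with a consensus correlation of 0.153, empirical Bayes moderation and two-sided Benjamini-Hochberg adjustment over all genes; the fit was tested on simulated data. Littermates share a dam, and the number of arrays limits the precision. The members and lists were chosen with earlier results of these data known. Named genes are the members, their relatives, called genes of 17 lists, called neighbours and the genes of most similar profile, leaving out predicted models, small RNAs, receptors of smell and sex-linked genes from the last; others were named after their values were seen. RefSeq tables of GRCm38.p6 served for gene order and promoters. Plots used matplotlib 3.10.9 under Python 3.11.15.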

Additional observations from a re-analysis of the deposited data

How the results depend on the processing

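The log2 changes of the 7 genes were negative in every alternative that gave a value. Since every mutant lay below every control by choice of the genes, leaving out embryos or litters could not change the sign. Only the size of the changes is read here. Their median, −0.94, was −1.07 without litter 1, −0.69 without litter 2, −1.14 with dim genes left out, which removes Cpn1 and Veph1, and −1.01 to −0.87 with 1 embryo left out. The counts of genes called higher and lower, 134 and 55, were 65 and 33 with litter means, 361 and 313 once the Xist level was included, 221 and 105 with array weights, 75 and 23 without litter 4, and 73 to 157 and 28 to 75 with 1 embryo left out. The lower count was 95 without the litter block, 90 without litter 1 and 91 with quantile normalization. In the lists, 8 genes were called higher and 1, Foxa1, lower. With 1 embryo left out these were 6 to 8 and 1 to 2. The lower count became 3 with quantile normalization, median centring, the trended robust prior or array weights, 7 with the Xist covariate, and 2 without the litter block, without litter 1, without litter 2 or with dim genes left out. Of the neighbours 0 were called, and 1 without litter 1, without litter 2, with dim genes left out, with probe sets averaged or with the trended prior. They were 2 without the litter block, with quantile normalization, array weights or the Xist covariate, and 0 to 1 with 1 embryo left out. The causes were not tested.

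In a window of 100 bases, 1 of the 7 genes held an NK2 motif, 0 the Sox motif and 0 the Gata motif, where the longer window gave 2, 2 and 1; a shorter window holds fewer matches by construction. With the replicate number as a replicate block, 140 genes were higher and 55 lower, list genes were called lower 2 times, and the changes of the 7 were as before. The labels give same-numbered embryos only a shared number. Their deviations correlated at −0.27 to 0.03, which shows no pairing but cannot exclude a shared processing step. The arrays' number, not read depth, limits these values.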
